A study of Mus musculus with 8 samples.

Results

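The nuclear-encoded subunits of the mitochondrial respiratory chain and of ATP synthase were examined in epididymal white adipose tissue of mice lacking the lysophosphatidic acid receptor LPA4. Members were chosen by gene symbol from the platform annotation, as the Nduf, Sdha to Sdhd, Uqcr, Cyc1, Cycs, Cox4 to Cox8 and Atp5 genes, with 1 probe set standing for each gene. The rule matched 92 genes. The 8 Ndufaf genes among them encode assembly factors and were set apart, which left 84 members of 18193 genes in all. The members comprised 34 subunits of complex I, 4 of complex II, 9 of complex III, 19 of complex IV and 17 of ATP synthase, together with cytochrome c. Ndufa4 and Ndufa4l2 were counted with complex IV. Another 8 symbols that fit the rule occur only on probe sets shared by several genes and were not counted. The subunits encoded by the mitochondrial genome were not analysed here.

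The respiratory chain sits in the inner mitochondrial membrane. Complexes I and II pass electrons from NADH and succinate to ubiquinone, complex III passes them on to cytochrome c, and complex IV passes them to oxygen. Complexes I, III and IV pump protons, and ATP synthase uses the resulting gradient to make ATP. In white adipocytes the chain supports lipid synthesis and storage as well as the oxidation of fatty acids, and its content is much lower than in brown adipocytes, where uncoupling protein 1 dissipates the gradient as heat.

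The study profiled 4 LPA4-KO and 4 WT mice, each array labelled as a separate biological replicate. LPA4-KO mice carried the Lpar4 -/Y genotype, that is, a deficiency of the X-linked gene in males, and WT mice were wild type. Both groups were male littermates on a C57BL/6 background, 12 weeks old and fed standard chow, with no treatment. How the allele was made was not given in the sources used here. Total RNA from snap-frozen tissue was converted to biotin-labelled RNA with a 3′ kit and hybridised to an Affymetrix mouse array. Levels below are deposited values taken as log2 units from their range, 5.27 to 14.07. They are compared between groups for the same probe set and never between genes. Differences are LPA4-KO minus WT.

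The array holds 3 probe sets of Lpar4. On the one with the lowest p, picked after its values were seen, the level was 5.80 ± 0.05 in LPA4-KO and 6.52 ± 0.03 in WT (SD, n = 4 each), a difference of -0.71 ± 0.03 (SE; limma, Benjamini-Hochberg adjusted p = 0.00334). The other probe sets of the gene had differences of 0.68 ± 0.24 (adjusted p = 0.233) and 0.48 ± 0.25 (adjusted p = 0.392), and their position relative to the deleted part was not given in the sources used here. Array medians ranged from 6.50 to 6.51. The interquartile range over all probe sets was 1.387 to 1.394 in LPA4-KO and 1.404 to 1.431 in WT, without overlap and highest in WT replicate 1. The 3′ minus 5′ signal was 1.21 to 1.33 against 1.14 to 1.22 for the actin control. For the Gapdh control it was 0.56 to 0.60 against 0.57 to 0.63. The part of these array values in the differences below was not tested. The adipocyte markers Adipoq and Fabp4 were at 13.83 and 13.40, and the epididymis and testis markers were nearly constant over all arrays. Of the 18193 genes, 14164 were nearly constant over all arrays in the deposited values. The 4029 genes, 22.1% of all, whose probe set spanned more than 0.1 log2 units between the lowest and the highest array are called varying here. Of the members, 59 varied and 25, or 29.8%, were nearly constant, with spans of 0.00022 to 0.0069.

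Differences between LPA4-KO and WT fat in transcripts of the respiratory chain and ATP synthase were small and mostly positive, and a minority of members passed the test. Of the 59 varying members, 58 had a positive difference, against 46.6% of all varying genes. The median difference was 0.16, or 12.0%, and the range was -0.04 to 0.52, beside a median of -0.03 over all varying genes. A fit of limma over all 18193 genes called 6 of the 84 members higher, or 7.14%, at an adjusted p under 0.05, beside 0.863% of all genes. The 6 were Cycs, Cyc1, Ndufs1, Ndufa5, Ndufv2 and Atp5g3. No member was called lower by limma, beside 0.451% of all genes. At an unadjusted p under 0.05, 35 members had a positive difference, 3 of them nearly constant, and 0 a negative one, beside 10.1% and 7.5% of all genes.

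A separate fit of limma on the varying genes alone called 17 of the 59 varying members higher, or 28.8%, beside 9.78% of the varying genes, and 0 lower, beside 11.5%. At an unadjusted p under 0.05 in this fit, 30 members had a positive difference and 0 a negative one, beside 18.4% and 21.3% of varying genes. In 27 of the 59 members, or 45.8%, every LPA4-KO array lay above every WT array, beside 14.4% of varying genes, and in no member did the order run the other way. A gene whose groups differ spans more over the arrays, so the varying members are read only against the varying genes. In the fit over all genes, 3.08% of varying genes were called higher. The calls of that fit rested on all 8 arrays: without WT replicate 1 limma called 4 members, of which Ndufs1 and Ndufv2 were among the 6 while Cox5a and Ndufs7 were not, and without WT replicate 2 it called Atp5g3 alone. Without any of the other arrays it called 0, with 27 to 37 members positive at an unadjusted p under 0.05. The differences of the 6 members stayed between 0.21 and 0.57, with adjusted p from 0.0462 to 0.115. In the fit of varying genes, 6 to 14 members were called when 1 array was left out, the lowest count without WT replicate 3 and 9 without any of the LPA4-KO arrays. The ± after a gene's difference below is the SE of the fit over all genes, also where the p is that of the fit of varying genes. For each of the 17 members called in the fit of varying genes, the SE of that fit was larger.

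**Figure D1:**
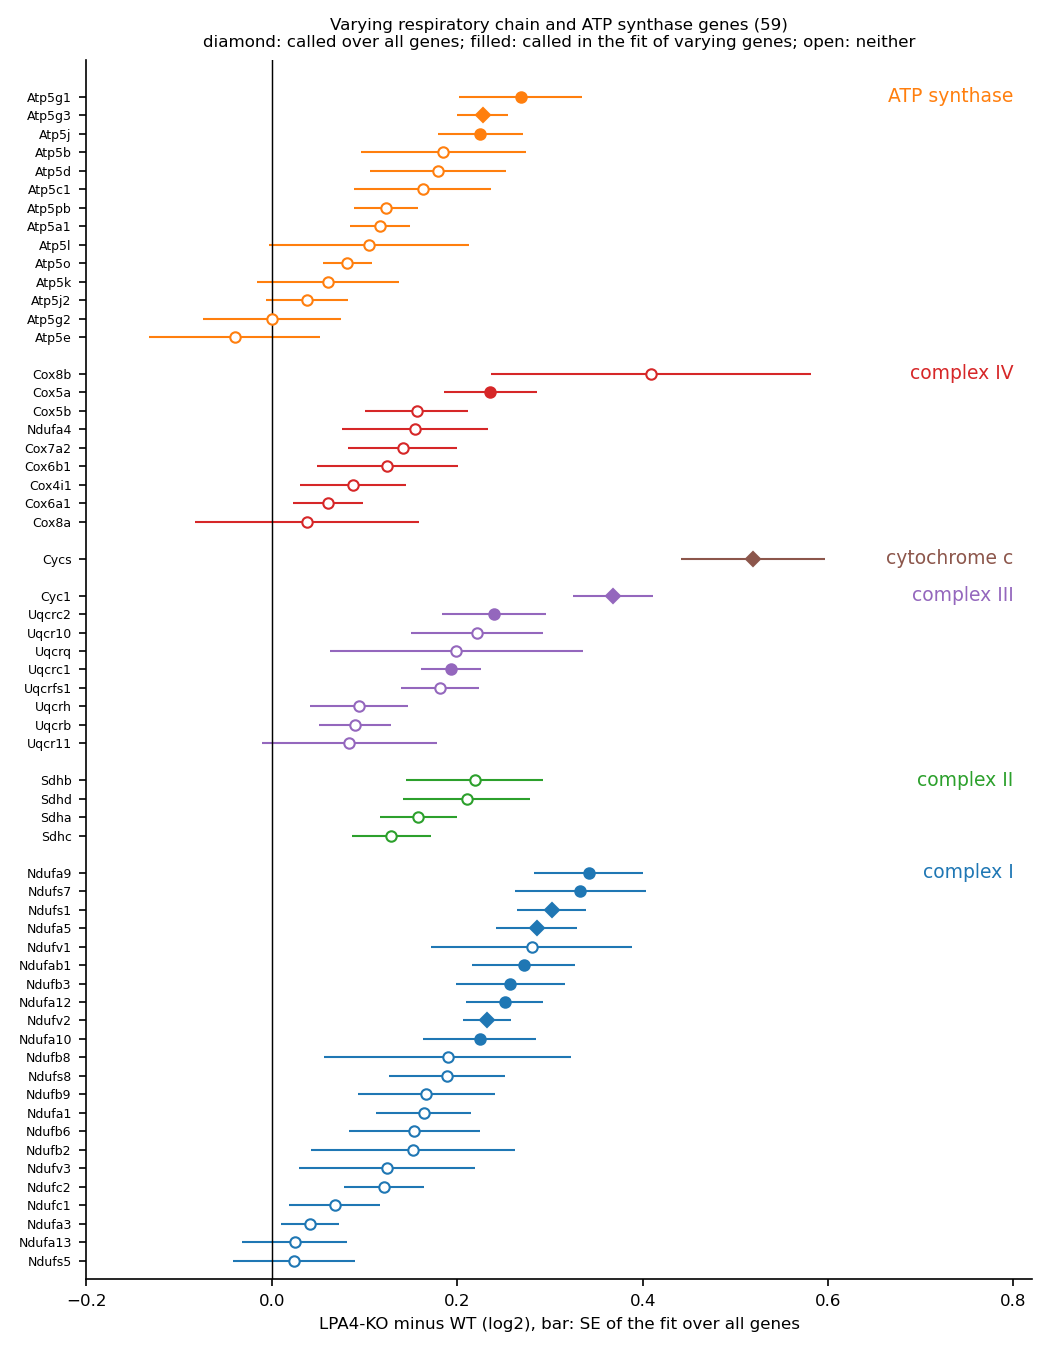
Difference between LPA4-KO and WT in log2 units for each of the 59 varying members, grouped by complex, with 1 point per gene. Bars are standard errors of the fit over all genes. Diamonds mark members called over all genes, other filled points those called in the fit of varying genes, and open points the rest. All points but Atp5e (-0.04) lie above 0, and Cycs has the highest value, 0.52.

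Complex I, the NADH dehydrogenase, contributed 3 of the 6 called members. All 22 of its varying subunits had positive differences, with a median of 0.19. In the fit of varying genes 9 were called, or 40.9%, beside 9.78% of varying genes. Ndufs1, the large subunit of the peripheral arm that carries iron-sulfur clusters, read 9.98, 9.87, 9.85 and 9.88 in LPA4-KO replicates 1 to 4 and 9.66, 9.62, 9.54 and 9.56 in WT replicates 1 to 4. The groups did not overlap, and Ndufs1 rose by 0.30 ± 0.04, or 1.23-fold (adjusted p = 0.0312). Ndufv2, another iron-sulfur subunit of the NADH-oxidising module, read 10.73, 10.79, 10.80 and 10.77 against 10.58, 10.58, 10.51 and 10.50. The SD was 0.03 in LPA4-KO and 0.04 in WT, without overlap, and it rose by 0.23 ± 0.03, or 1.17-fold (adjusted p = 0.0292). Ndufa5, an accessory subunit of the peripheral arm, read 10.02, 9.88, 9.90 and 9.92 against 9.70, 9.66, 9.67 and 9.55. It rose by 0.29 ± 0.04, or 1.22-fold (adjusted p = 0.0433), with LPA4-KO replicate 1 the highest array and WT replicate 4 the lowest.

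Core subunits, which carry the redox centres and the quinone-binding part, stood beside accessory subunits as follows. Of 6 core subunits measured, 5 varied, all 5 had groups that did not overlap, 3 were called in the fit of varying genes, and the median difference was 0.28. Of 28 accessory subunits, 17 varied, 6 had groups that did not overlap, 6 were called, and the median was 0.16. Among all varying genes, 14.4% did not overlap with LPA4-KO higher and 9.78% were called higher. The 2 sets of subunits were not tested against each other. Among the core subunits, Ndufs7, near the quinone site, averaged 10.39 ± 0.07 in LPA4-KO and 10.06 ± 0.13 in WT (SD, n = 4 each). Its difference of 0.33 ± 0.07 passed only in the fit of varying genes (adjusted p = 0.0199, and 0.0841 over all genes). WT replicate 1, at 10.25, was the WT array closest to the LPA4-KO arrays. Among accessory subunits, Ndufa9 averaged 10.60 ± 0.07 against 10.26 ± 0.10, a difference of 0.34 ± 0.06 (adjusted p = 0.0143 in the fit of varying genes, 0.0556 over all genes). Ndufab1, the mitochondrial acyl carrier protein that also serves fatty acid synthesis in mitochondria, differed by 0.27 ± 0.06, Ndufb3 by 0.26 ± 0.06, Ndufa12 by 0.25 ± 0.04 and Ndufa10 by 0.22 ± 0.06, and each passed only in the fit of varying genes. As the mean of all probe sets, which takes in nearly constant ones, Ndufab1 and Ndufa10 differed by 0.11 and 0.11. In that setting Ndufab1 passed over all genes (limma, adjusted p = 0.0459) and Ndufa10 did not (adjusted p = 0.129). The varying probe sets of Ndufab1 differed by 0.27 and 0.26. Ndufa1, a small membrane-arm subunit, differed by 0.16 ± 0.05 with overlapping groups (adjusted p = 0.175), and Ndufb11 was nearly constant.

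Complex II, succinate dehydrogenase, links the tricarboxylic acid cycle to the chain and is encoded by nuclear genes alone. All 4 subunits varied and had positive differences of 0.13 to 0.22, with a median of 0.18. None was called by limma in either fit, while all 4 had an unadjusted p under 0.05 over all genes and 3 in the fit of varying genes. Sdhb, the iron-sulfur subunit, read 11.25, 11.14, 11.15 and 11.29 in LPA4-KO and 10.81, 11.13, 10.99 and 11.04 in WT. WT replicate 2 nearly reached LPA4-KO replicate 2, and the difference was 0.22 ± 0.07 (adjusted p = 0.204). Sdha, the flavoprotein that binds succinate, read 11.04, 11.10, 11.16 and 11.19 against 10.90, 11.01, 10.93 and 11.005, without overlap (0.16 ± 0.04, adjusted p = 0.124). The membrane anchors Sdhd and Sdhc differed by 0.21 ± 0.07 and 0.13 ± 0.04, with overlapping groups.

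Cytochrome c, which accepts electrons from complex III, had the highest difference of the varying members. Its somatic form, encoded by Cycs, carries electrons on to complex IV and triggers apoptosis when released. Cycs read 11.76, 11.70, 11.64 and 11.75 in LPA4-KO and 11.35, 11.29, 11.10 and 11.03 in WT. Every LPA4-KO array was above every WT array, and the WT arrays spread more widely (SD 0.15). Cycs rose by 0.52 ± 0.08, or 1.43-fold (adjusted p = 0.0409). Cyc1, the haem-bearing cytochrome c1 of complex III that hands electrons to cytochrome c, read 10.71, 10.64, 10.61 and 10.75 against 10.23, 10.37, 10.33 and 10.30. It rose by 0.37 ± 0.04, or 1.29-fold (adjusted p = 0.0292). All 9 complex III subunits varied with positive differences, with a median of 0.19. In the fit of varying genes 3 were called, or 33.3%, beside 9.78% of varying genes. The core proteins Uqcrc2 (0.24 ± 0.06, adjusted p = 0.0349) and Uqcrc1 (0.19 ± 0.03, adjusted p = 0.0454) passed in that fit and not over all genes (0.0963 and 0.0536). Their SEs in the fit of varying genes were 0.067 and 0.059. Uqcrfs1, the Rieske iron-sulfur protein, differed by 0.18 ± 0.04 without overlap and did not pass in the fit of varying genes (adjusted p = 0.0564). The small subunits Uqcrb and Uqcrh differed by 0.09 ± 0.04 and 0.09 ± 0.05 and did not pass.

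**Figure D2:**
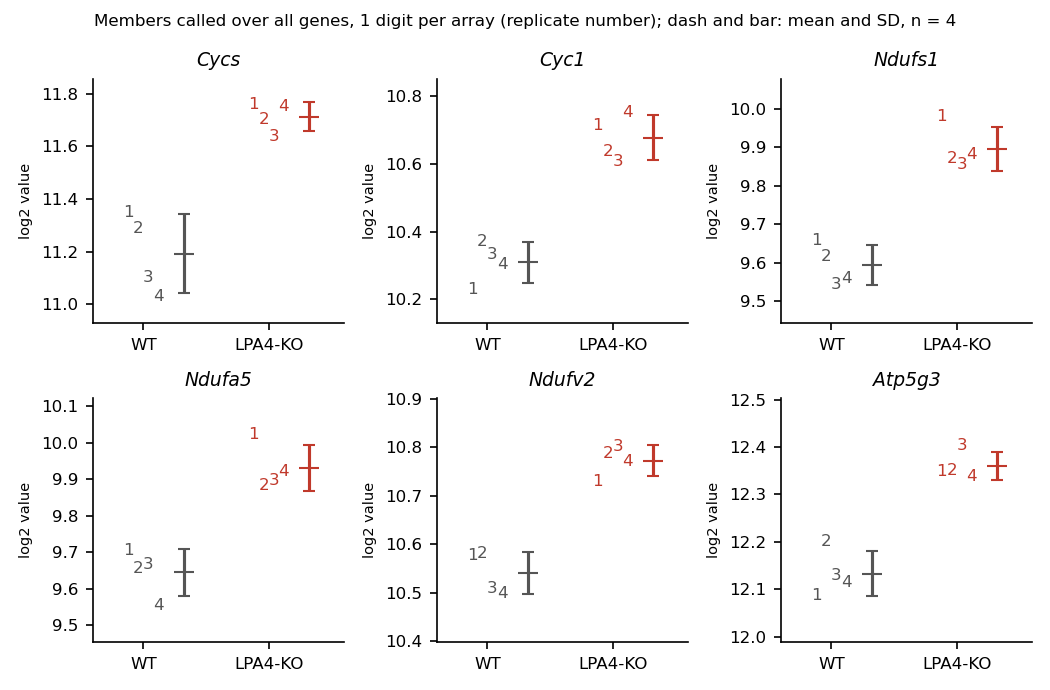
Log2 level in each of the 4 LPA4-KO and 4 WT arrays for the 6 members called over all genes, each array drawn as its replicate number, with mean and SD (n = 4) at the side. In each of the 6 the LPA4-KO arrays lie above all WT arrays.

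Sequence upstream of 2 called members is shown because it holds matches to motifs of factors long linked to nuclear genes of oxidative phosphorylation, namely nuclear respiratory factor 1 (NRF1) and the oestrogen-related receptors (ERR). The windows are the 250 bases before the RefSeq start site in GRCm38.p6, both upstream of genes on the minus strand, and capitals mark the match. The Cycs window lies at chr6:50566570-50566819, with the NRF1 motif on the opposite strand from position -61, counted from the start site. The Atp5g3 window lies at chr2:73911327-73911576, with the ERR motif on the opposite strand from position -52.
Cycs: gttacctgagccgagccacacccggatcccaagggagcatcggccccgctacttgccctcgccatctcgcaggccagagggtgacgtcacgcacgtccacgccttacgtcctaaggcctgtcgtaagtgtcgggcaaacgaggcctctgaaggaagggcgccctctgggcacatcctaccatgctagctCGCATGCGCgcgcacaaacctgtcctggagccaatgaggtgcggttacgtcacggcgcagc
Atp5g3: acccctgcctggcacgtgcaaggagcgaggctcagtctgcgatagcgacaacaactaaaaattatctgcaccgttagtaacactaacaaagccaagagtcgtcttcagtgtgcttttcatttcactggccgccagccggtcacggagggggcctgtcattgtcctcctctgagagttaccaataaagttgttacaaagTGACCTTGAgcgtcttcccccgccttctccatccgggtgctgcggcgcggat
A match to such letters is a description and not a bound site.

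Windows from 250 bases before to 50 after the start site were searched on both strands. RefSeq held 73 windows for 68 of the 84 members. The NRF1 motif GCGCATGCG, which overlaps its own reverse complement, was in 11% of the member windows and 2.69% of the windows of all measured genes. The ERR motif AAGGTCA was in 11% against 3.92%, and its longer form TCAAGGTCA, which contains it, in 2.74% against 0.342%. The YY1 motif AAGATGGCG was in 8.22% against 2.09%, and the ETS motif CCGGAAGT, bound by GABPA, in 6.85% against 5.83%. Mean GC content was 58% in member windows and 58.4% in all. Of the 17 members called in the fit of varying genes, 14 had a window. NRF1 matches lay at Cycs and Uqcrc1, the ERR match at Atp5g3, and YY1 matches at Atp5j, Ndufa9 and Ndufs7. The shares of these 14 genes were 14.3% for NRF1, 7.14% for AAGGTCA, 21.4% for YY1 and 0% for ETS. Among all varying members with a window they were 14%, 14%, 10% and 6%. Matches also lay at members that were not called, such as NRF1 at Atp5g2 and ERR at Atp5e. A link between motifs and calls was not tested.

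Complex IV, cytochrome c oxidase, had a smaller share of varying members, 9 of 19, all with positive differences and a median of 0.14. Over all genes none was called by limma, with 4 at an unadjusted p under 0.05, 2 of them varying and 2 nearly constant (Cox7c and Cox4i2). In the fit of varying genes 1 was called, or 11.1% of the varying members, near the 9.78% of all varying genes. That member was Cox5a, a nuclear subunit of the matrix face, at 11.53, 11.50, 11.58 and 11.55 in LPA4-KO and 11.44, 11.30, 11.22 and 11.25 in WT. WT replicate 1 was the closest WT array, and the difference was 0.24 ± 0.05 (adjusted p = 0.0273 in that fit, 0.0843 over all genes).

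Several subunits of this complex come as tissue isoforms. Cox8b, the isoform of heart, muscle and brown fat, read 7.70, 7.56, 7.61 and 8.29 in LPA4-KO and 7.23, 7.34, 7.42 and 7.53 in WT. LPA4-KO replicate 4 stood far above the other arrays, the groups did not overlap, and the difference was 0.41 ± 0.17 (adjusted p = 0.29), or 0.24 to 0.48 with 1 array left out. Its ubiquitous counterpart Cox8a differed by 0.04 ± 0.12, with WT arrays between 11.38 and 11.86. Cox7a2 differed by 0.14 ± 0.06 without overlap, and WT replicate 1 was at 11.61 while the other 3 WT arrays were at 11.82. Cox4i1, Cox6a1, Cox6b1 and Ndufa4 differed by 0.09 ± 0.06, 0.06 ± 0.04, 0.12 ± 0.08 and 0.15 ± 0.08. None of these passed in either fit. Their counterparts Cox4i2, Cox6a2, Cox6b2, Cox7a1, Cox8c and Ndufa4l2, as well as Cox7a2l and Cox7c, were nearly constant over all 8 arrays, so the table gives no measure of a group difference for them.

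**Figure D3:**
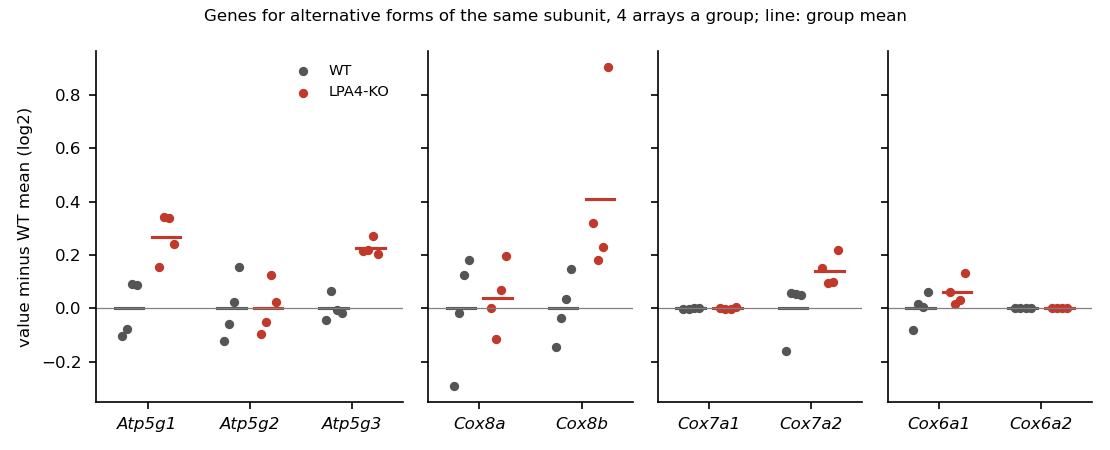
Level of each array minus the WT mean, in log2 units, for isoform genes of ATP synthase (Atp5g1 to Atp5g3) and complex IV (Cox8a, Cox8b, Cox7a1, Cox7a2, Cox6a1 and Cox6a2), with WT in grey, LPA4-KO in red and group means as lines. Atp5g3 and Atp5g1 separate by group, Atp5g2 overlaps, Cox7a1 and Cox6a2 are nearly constant, and the Cox8b array far above the rest is LPA4-KO replicate 4.

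ATP synthase had 13 positive differences and 1 negative among 14 varying subunits, with a median of 0.12. Its rotating ring is built of c subunits that 3 genes encode with different targeting sequences but the same mature protein, and these genes differed in their values. Atp5g3 read 12.35, 12.35, 12.40 and 12.34 in LPA4-KO and 12.09, 12.20, 12.13 and 12.11 in WT, with narrow groups, and rose by 0.23 ± 0.03, or 1.17-fold (adjusted p = 0.0298). Atp5g1 read 9.003, 9.19, 9.19 and 9.09 against 8.74, 8.77, 8.94 and 8.94, and its difference of 0.27 ± 0.07 passed only in the fit of varying genes (adjusted p = 0.0368, and 0.107 over all genes). It was 0.13 as the mean with its other probe set, which was nearly constant. Atp5g2 read 10.17, 10.21, 10.39 and 10.29 against 10.14, 10.21, 10.29 and 10.42. Its groups overlapped throughout, with a difference of 0.00026 ± 0.07 (adjusted p = 0.999) that turned negative after quantile normalization, with array weights or after leaving out certain arrays. The differences among the 3 genes were not tested against each other.

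Atp5j, coupling factor 6 of the stalk, differed by 0.23 ± 0.05 and passed in the fit of varying genes (adjusted p = 0.0333). The 5 subunits of the catalytic F1 part all varied and none was called by limma in either fit, with 2 at an unadjusted p under 0.05 in each. Their median difference was 0.16, and 1 of the 5 had groups without overlap. Atp5c1, the central shaft, differed by 0.16 ± 0.07, and Atp5e, the smallest F1 subunit, by -0.04 ± 0.09 (adjusted p = 0.882), the only varying member below 0. Of the 12 other subunits, 9 varied, 5 had groups without overlap and 3 were called in the fit of varying genes. Among all varying genes, 14.4% were without overlap with LPA4-KO higher and 9.78% were called higher.

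Where a member was measured by several probe sets, they mostly gave the same direction. The 84 members had 174 probe sets that name a single gene. Of these, 100 varied, 97 with a positive and 3 with a negative difference, and 74 were nearly constant. Several varying probe sets covered 27 members, and in 26 of them all had the same sign. The exception was Cox6a1, with differences of -0.0027 and 0.06. The 3 varying probe sets of Cycs differed by 0.52, 0.57 and 0.58. Passing and overlap could change with the probe set. Another Uqcrc2 probe set differed by 0.21 ± 0.03 and passed in a limma fit over all single-gene probe sets (adjusted p = 0.0443). Other probe sets of Cox5a (0.25 ± 0.04), Ndufc2 (0.13 ± 0.01) and Atp5pb (0.17 ± 0.03) also passed in that fit (adjusted p = 0.0498, 0.0316 and 0.0480). Another Sdha probe set differed by 0.10 ± 0.08 with overlapping groups (adjusted p = 0.61 in that fit). In 24 members a varying and a nearly constant probe set stood side by side, Cycs among them, so a nearly constant probe set does not show that a transcript was unchanged. The probe set shared by Ndufa11 and Ndufa11b, which stands for no single gene, was at 9.27 ± 0.09 in LPA4-KO and 8.98 ± 0.17 in WT, without overlap.

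**Figure D4:**
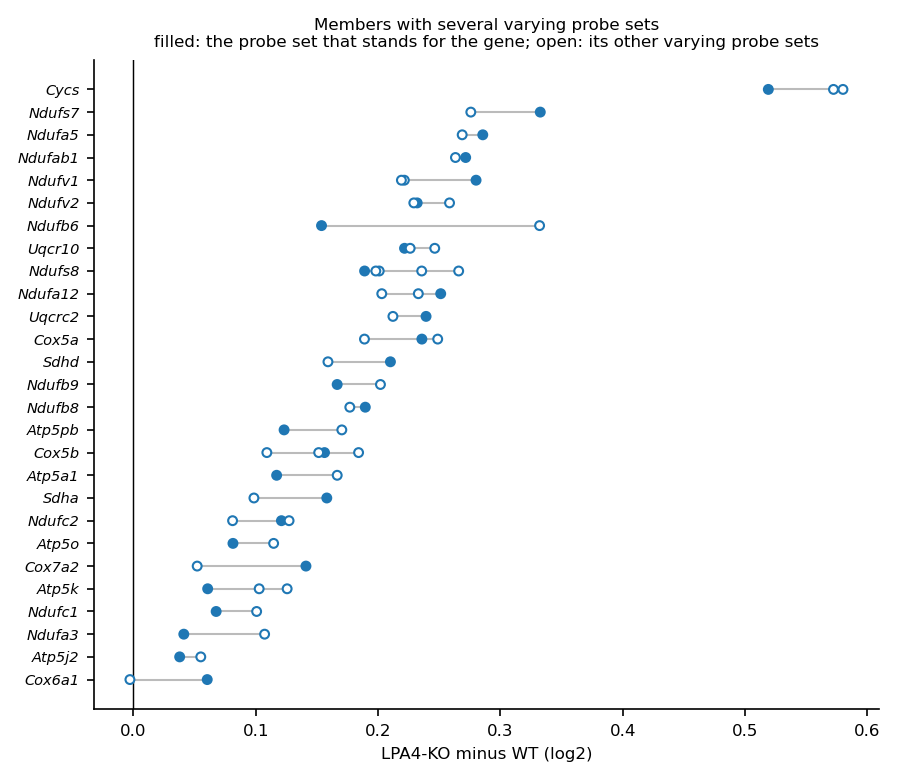
Difference between LPA4-KO and WT in log2 units for each varying probe set of the 27 members that have several, with 1 line per gene and the probe set that stands for the gene filled. All lines but that of Cox6a1 keep 1 sign.

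Single arrays stood apart over the members as a whole. Relative to the WT mean, the median of the 59 varying members was 0.16, 0.12, 0.15 and 0.25 in LPA4-KO replicates 1 to 4 and -0.09, 0.01, 0.03 and 0.05 in WT replicates 1 to 4. WT replicate 1 was the lowest of all 8 arrays in 43 of the 59 members, and LPA4-KO replicate 4 was the highest in 37. LPA4-KO replicate 4 was above the WT mean in all 59 members, and LPA4-KO replicate 2, the lowest LPA4-KO array in 37, in 46. With both WT replicate 1 and LPA4-KO replicate 4 left out, an alternative chosen after these values were seen, 50 of the 59 differences were positive, and the median difference of the varying members was 0.0855. Limma then called 0 members over all genes, with 28 higher at an unadjusted p under 0.05, and 9 in the fit of varying genes.

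The order of arrays differed by member. Among the 42 varying members that were not called in the fit of varying genes, WT replicate 1 was the lowest WT array in 36 and LPA4-KO replicate 4 the highest LPA4-KO array in 32. Among the 17 called members, WT replicate 1 was the lowest WT array in 8 and the highest in 5, as in Cycs, Ndufs7 and Cox5a. The median SD within groups was 0.074 in the 17 called and 0.10 in the 42 others. Limma weighs a difference against this spread, so a smaller SD in called members follows from how they were chosen. The orders of arrays above compare sets chosen in the same way. With group means removed, pairs of varying members correlated over the 8 arrays with a median r of 0.46 (quartiles -0.23 and 0.75), beside 0.0057 for pairs of all varying genes. These pairs share the same arrays and their common deviations, and no test was made.

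**Figure D5:**
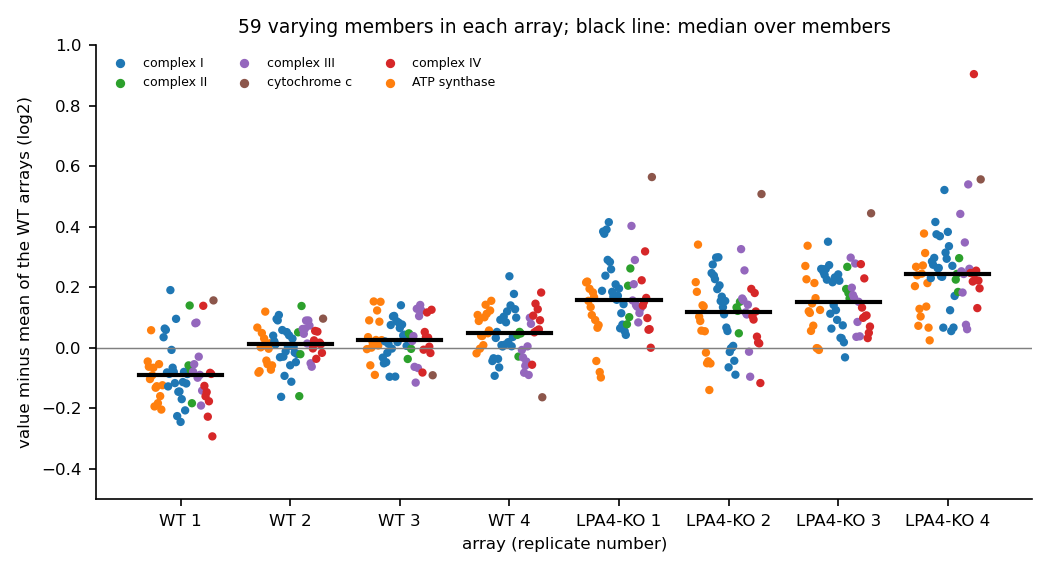
Deviation from the WT mean in log2 units of each varying member in each of the 8 arrays, coloured by complex, with the median per array as a black line. The medians run from -0.09 in WT replicate 1 to 0.25 in LPA4-KO replicate 4.

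Genes listed here as assembly factors, most of which insert cofactors or put complexes together without being part of them, also had mostly positive differences. Of 47 measured, 18 varied, 16 with positive and 2 with negative differences, and the median was 0.17. Limma called 5 higher over all genes, or 10.6%, beside 0.863% of all genes, and 0 lower, beside 0.451%. The share of the members called higher was 7.14%. At an unadjusted p under 0.05, 18 of the 47 had a positive difference, or 38.3%, beside 10.1% of all genes. Of the 18, 8 varied and 10 were nearly constant. At that threshold 0 had a negative difference, beside 7.5% of all genes. Of the 5, only Acad9 was still called without WT replicate 2, none was called without any other array, and Ttc19 was called without WT replicate 1. Acad9, a complex I assembly factor related to acyl-CoA dehydrogenases, rose by 0.40 ± 0.06 (adjusted p = 0.0363), and by 0.13 as the mean of all its probe sets. Lrpprc, which stabilises mitochondrial transcripts, rose by 0.39 ± 0.05 (adjusted p = 0.0363), Aifm1 by 0.33 ± 0.03 (adjusted p = 0.0238) and Foxred1 by 0.26 ± 0.04 (adjusted p = 0.0446). The fifth, the copper chaperone Sco1, was nearly constant with a difference of 0.00019. Ttc19 of complex III differed by 0.31 ± 0.06 and passed only in the fit of varying genes (adjusted p = 0.0293), with 0.10 as the mean of its probe sets. The ATP synthase factors Tmem70 and Atpaf1 differed by 0.21 ± 0.07 and 0.22 ± 0.08 and did not pass.

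Among 41 other genes of the pathway (regulators, carriers, further electron donors to ubiquinone, and cristae proteins), 20 varied, 17 with positive and 3 with negative differences, and the median was 0.25. Cox7a2l, which was nearly constant, is counted both in this list and among the members. Limma called 7 higher over all genes, or 17.1%, beside 0.863% of all genes, and 0 lower, beside 0.451%. With 1 array left out, 0 to 4 of these 7 were still called. Slc25a5, an ADP/ATP carrier that exports the ATP made by the synthase, rose by 0.31 ± 0.03 (adjusted p = 0.0229). Etfdh and Etfb, which pass electrons from fatty acid oxidation to ubiquinone, rose by 0.35 ± 0.04 (adjusted p = 0.0312) and 0.23 ± 0.03 (adjusted p = 0.0338). Phb2, Chchd3 and Higd1a of the inner membrane rose by 0.29 ± 0.03, 0.25 ± 0.03 and 0.29 ± 0.04 (adjusted p = 0.0235, 0.0292 and 0.0389). Polrmt, the mitochondrial RNA polymerase, was the 1 called regulator of 19 measured, at 0.26 ± 0.02 (adjusted p = 0.0213). As the mean of all probe sets of the gene, the differences were 0.18 for Etfdh, 0.085 for Chchd3, 0.097 for Higd1a and 0.13 for Polrmt, and each still passed. The coactivators Ppargc1a and Ppargc1b differed by 0.13 ± 0.15 and 0.16 ± 0.09 and did not pass. Atpif1, the inhibitor of ATP synthase, had a difference of -0.20 ± 0.07 (adjusted p = 0.208).

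Summed levels of cell type markers also stood apart between the groups for several lists. In bulk tissue, fewer cells of a type and less RNA per cell cannot be told apart. The summed signal of 12 measured adipocyte markers was 16.03 to 16.09 in LPA4-KO and 15.99 to 16.03 in WT (log2 of the sum), with 7 positive and 2 negative differences among varying markers. These sums overlapped, as LPA4-KO replicate 2, at 16.0264, lay below WT replicates 3 and 4, at 16.0275 and 16.032. Slc2a4, the insulin-responsive glucose transporter, differed by 0.70 ± 0.20 and was the 1 adipocyte marker called in the fit of varying genes. The sum over 10 brown and beige markers was 9.84 to 9.92 against 9.66 to 9.80, with Ucp1 nearly constant at 6.01. Of these markers 3 varied, all 3 with positive differences and a median of 0.28, and 0 were called in either fit. Progenitor and fibroblast markers (10 measured) summed to 14.81 to 14.98 against 15.03 to 15.15, and all 9 varying ones had negative differences. Mesothelial markers (10) summed to 10.99 to 11.53 against 11.43 to 12.32, with all 10 differences negative. Macrophage markers (10) summed to 13.33 to 13.49 against 13.52 to 13.80, with 8 negative. Endothelial markers (8) summed to 11.83 to 11.96 against 11.94 to 12.14 and skeletal muscle markers (10) to 10.35 to 11.34 against 10.90 to 11.49. The highest muscle sum in LPA4-KO, 11.34, was that of replicate 4, the array with the highest Cox8b. WT replicate 3 had the highest muscle sum of all arrays, 11.49, with Cox8b at 7.42. LPA4-KO replicate 1 had the lowest, 10.35, with Cox8b at 7.70. The part of these markers in the respiratory chain differences was not tested.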

How the data were processed

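Epididymal fat of 4 LPA4-KO and 4 WT mice was profiled on Affymetrix arrays, and the values used are those the authors deposited in the series matrix. The deposited values were taken as log2 from their range. The summary and normalization methods and the genome build were not given in the sources used here, and R 2.14.0 is named per the submitters' processing notes. No value was changed before the fit. Of 45101 probe sets, 34945 name 1 gene in the platform annotation, 932 name several, and the rest were not used. The probe set with the highest mean stood for each gene.

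The comparison of LPA4-KO with WT used lmFit and eBayes (with a trend) of limma 3.58.1, run in R 4.3.3, with Benjamini-Hochberg adjustment over all 18193 genes and a threshold of 0.05. A second fit held the 4029 genes that span over 0.1. The number of arrays, 4 per group, limits the precision. The fits were run on simulated data with independent noise for each gene and changes larger than those of the members. That run cannot speak for smaller changes or for deviations that members share within an array. The members and lists were chosen with earlier results of these data known. Members are named if called in either fit, if among the 2 smallest p or the 2 highest means of a complex, if negative, or if in an isoform group. From the other lists, called genes and those with the smallest p are named. Uqcrfs1, Sdhc, Ndufc2, Atp5pb, Ppargc1a, Ppargc1b, Ucp1 and the markers were named outside this rule, after their values were seen. Alternatives covered normalization, centring, variance settings, weights per array, blocking on the replicate number, the choice of probe set, filters and each array left out. Correlations of same-numbered arrays were 0.018, 0.078, 0.24 and -0.18, so the numbers were not taken as pairs. A pairing was not excluded, as 2 LPA4-KO arrays and 1 WT array correlated best with the same-numbered array of the other group. Promoter sequences are RefSeq's, GRCm38.p6. Protein sequences were not used here.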

Additional observations from a re-analysis of the deposited data

Results flagged for a closer look

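In each group of 4 arrays, the gap between an extreme array and its neighbour was set against the range of the group (Dixon's criterion) for 98 groups of the genes named. It was exceeded in 2 groups, and chance gives about 1 in 20 groups. Cox7a2, a complex IV subunit, was at 11.61 in WT replicate 1, below the next WT array at 11.82 (ratio 0.978). Polrmt was at 7.63 in WT replicate 2, above the next WT array at 7.54 (ratio 0.858).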

How the results depend on the processing

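The count of 6 members called by limma over all genes was 36 after quantile normalization, which called 8799 genes higher in all against 157, 11 with array weights, 11 among genes above the median level and 17 among varying genes alone. With the replicate number as a block it was 0, with 36 at an unadjusted p under 0.05. Whether the numbers pair the arrays was not known. Leaving out 1 array gave 0 to 4. For the assembly factors, 5 became 21, 8 and 0 under quantile normalization, the level filter and the block (18 unadjusted under the block), and 0 to 1 with 1 array left out. For the other pathway genes, 7 became 20 and 0 under quantile normalization and the block (16 unadjusted), and 0 to 4 with 1 array left out. Lpar4 under the block had a difference of -0.71 (adjusted p 0.0847). In the fit of varying genes, the 17 members ranged from 13 to 19 over all other settings and from 6 to 14 with 1 array left out. The median of 0.16 was 0.12 to 0.17 over settings and 0.13 to 0.19 with 1 array left out.

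With both extreme arrays left out, chosen after seeing the data, limma called 0 members over all genes (28 unadjusted), 9 in the fit of varying genes, 0 assembly factors (13 unadjusted) and 1 other pathway gene, and the median difference of the varying members was 0.0855. Among the varying members that the naming rule gave, 4 changed sign: Atp5g2 was -0.00011 with quantile normalization, -0.018 with array weights, -0.049 with both arrays out and -0.041 to 0.052 with 1 out; Cox8a was -0.026 with array weights, -0.11 with both out and -0.060 to 0.10 with 1 out; Cox6a1 was -0.0027 with its widest-ranging probe set; and Atp5e was -0.11 to 0.011 with 1 array out. The causes were not tested.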
